A study of Mus musculus with 4 samples.

Results

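The guanylate-binding proteins (GBPs) described here were 9 genes of the tumor single-cell data, Gbp2, Gbp2b, Gbp3, Gbp4, Gbp5, Gbp6, Gbp7, Gbp8 and Gbp9, chosen by symbol from the 32285 genes of the files, in which the family has 10 genes. The other one, Gbp10, is given only for comparison. Cells came from YUMMER1.7 tumors, a mouse melanoma line with many mutations that was derived from a male mouse, grown under the skin of wild-type C57BL/6J mice. Per the study's methods, the mice were males of 7 to 8 weeks and were given antibodies by intraperitoneal injection from day 7. One arm received an isotype control (IgG1). Of the other arms, one was given anti-PD-1 at 10 mg/kg (clone RMP1-14), another anti-MIF at 20 mg/kg (clone IIID.9), and the last both antibodies together, written anti-PD-1/anti-MIF or the combination. PD-1 is an inhibitory receptor of activated T cells, and MIF (macrophage migration inhibitory factor) is a cytokine that signals through CD74. The short cohort received 2 doses over 1 week and its tumors were taken on day 14, and the long cohort received 4 doses over 2 weeks with tumors taken on day 21. Within a cohort, cells of the arms were tagged with hashtag antibodies and run as 1 library, after sorted CD45+ and CD45- cells had been recombined at 80% and 20%. Each arm of a cohort was therefore 1 sample, with no replicate of the same arm and duration, and the number of mice behind a hashtag is not given in the sources used here. The cohorts differed in duration and in library at once, and these cannot be told apart.

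GBPs are large GTPases that belong to the defense of a cell against microbes in its cytosol and in vacuoles. Interferon gamma from T cells and NK cells binds the receptor made of Ifngr1 and Ifngr2, JAK kinases are activated at the receptor, and the signal reaches GAS elements in target promoters, while IRF1 and the type I interferon route act at ISRE elements. GBP transcripts are among the targets of both routes and are widely used as a readout of interferon gamma. The mouse genes lie in a cluster on chromosome 3 and in another on chromosome 5.

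In GENCODE release vM21 on GRCm38, Gbp5 (ENSMUSG00000105504, chr3:142493978-142522344), Gbp7 (ENSMUSG00000040253, chr3:142530342-142550149), Gbp3 (ENSMUSG00000028268, chr3:142560026-142573209), Gbp2b (ENSMUSG00000040264, chr3:142594847-142619179) and Gbp2 (ENSMUSG00000028270, chr3:142620602-142638008) lay on the plus strand. On the minus strand of chromosome 5 were Gbp8 (ENSMUSG00000034438, chr5:105014150-105139540), Gbp9 (ENSMUSG00000029298, chr5:105077630-105139539), Gbp4 (ENSMUSG00000079363, chr5:105115767-105139586), Gbp10 (ENSMUSG00000105096, chr5:105215699-105239533) and Gbp6 (ENSMUSG00000104713, chr5:105270702-105293698). The gene models of Gbp4, Gbp8 and Gbp9 ended at nearly the same 5′ position and shared some exon bases there. The shared part was 0.814% of the exon bases of Gbp4, 1.77% of Gbp8 and 1.16% of Gbp9. Per the study's methods the libraries were made with a 5′ kit, so reads come mainly from that end. These shares of all exon bases therefore do not give the share of reads that fell there. Of the 50-base stretches in transcripts of Gbp6, 48.4% also stood in another family member, mostly Gbp10. The same held for 76.2% of those of Gbp10, and for 16.7% of those of Gbp8, mostly shared with Gbp10. How the counting split reads between such copies is not given in the sources used here, so the values of Gbp6 and Gbp10, and those of Gbp4, Gbp8 and Gbp9, are uncertain as single genes.

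Promoter windows were available for 5 of the 9 members in RefSeq on GRCm38.p6. Gbp4, Gbp6, Gbp8 and Gbp9 had no entry. Windows of 250 bases before the RefSeq start were searched on both strands for GAS (TTCNNNGAA) and ISRE (GAAANNGAAA or TTTCNNTTTC). Of 32851 such windows over the whole table, 7.02% held a GAS match, 2.98% an ISRE match and 0.332% held both. Gbp5 and Gbp7 each held 2 GAS matches and 1 ISRE match. Gbp2b and Gbp2 held 1 ISRE match each, without a GAS match. The Gbp2 match, 59 bases before the RefSeq start, lay among bases that GENCODE places in an exon. Gbp3, also without a GAS match, held 2 ISRE matches that overlap in the first of its 2 RefSeq windows and none in the other. The 3 windows below are shown because they hold both motifs, or the ISRE alone in the case of Gbp2b. In the 4 arms, Gbp2b was counted in 1 gate only. Matches are in capitals, bases that GENCODE places in an exon were removed, and all 3 are read 5′ to 3′ on the plus strand, from chr3:142496684-142496899 (Gbp5), chr3:142530086-142530335 (Gbp7) and chr3:142594597-142594846 (Gbp2b).
Gbp5: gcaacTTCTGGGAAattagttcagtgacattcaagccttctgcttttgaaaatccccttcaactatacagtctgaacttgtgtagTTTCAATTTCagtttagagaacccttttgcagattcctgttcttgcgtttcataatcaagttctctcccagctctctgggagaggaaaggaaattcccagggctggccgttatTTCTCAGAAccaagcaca
Gbp7: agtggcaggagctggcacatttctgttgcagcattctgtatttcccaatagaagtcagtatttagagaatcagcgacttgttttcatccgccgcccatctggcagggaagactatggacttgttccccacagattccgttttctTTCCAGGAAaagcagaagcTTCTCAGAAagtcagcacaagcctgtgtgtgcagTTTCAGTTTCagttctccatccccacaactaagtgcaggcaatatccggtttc
Gbp2b: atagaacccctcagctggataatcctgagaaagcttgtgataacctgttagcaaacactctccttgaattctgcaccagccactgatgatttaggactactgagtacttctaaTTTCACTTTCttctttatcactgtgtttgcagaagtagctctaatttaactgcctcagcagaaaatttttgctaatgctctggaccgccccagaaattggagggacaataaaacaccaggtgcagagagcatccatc
A match is a description of these letters, and no binding was measured in these data.

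After filtering, 4790 cells with a single hashtag of the 4 arms remained, 1671 in the long and 3119 in the short cohort, from libraries of 23702910 and 31799441 gene UMIs (unique molecular identifiers, each counting 1 captured RNA molecule). Of the cell barcodes, 20 occurred in both libraries. Cells were gated by markers, at 1 UMI or more of each. The T gate (Cd3e) held 542 cells, the plasmacytoid dendritic cell (pDC) gate (Siglech) 86, the mature dendritic cell gate (Ccr7 and Fscn1) 148 and the monocyte/macrophage gate (Lyz2 with Ly6c2 or C1qb) 2681, or 56.0% of all cells. A further 1274 cells fell in no gate and 59 fell in several and were left out. Levels are UMIs per 1000000 gene UMIs of the gated cells of an arm (CPM), and their intervals are exact Poisson 95% intervals, which cover counting error only. Because 1 end of each RNA was captured, CPM does not grow with transcript length.

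Summed by list, markers that the gates did not use were highest in their own gates. The 5 T markers (Cd3d, Cd3g, Cd2, Trac, Lck) summed to between 2550 and 4032 CPM over the 8 arms in the T gate and to at most 13.3 CPM in any arm of at least 10 cells elsewhere. The 5 pDC markers reached 9218 CPM or more in the pDC gate, and the 5 mature dendritic cell markers 3440 CPM or more in theirs. In the monocyte/macrophage gate the 6 check markers summed to between 4403 and 6233 CPM, led by Plac8. This gene, which pDCs also transcribe, led the list in the pDC gate as well (list sum 2879 to 3627 CPM). Single genes of a list were not all confined to its gate. In the T gate Plac8 stood at 184 to 766 CPM, and Tnfrsf9, of the mature dendritic cell list, at 327 to 1070 CPM. Melanoma and fibroblast markers were at or near 0 in all 4 gates. Neutrophil markers were the exception in the monocyte/macrophage gate. The sum of S100a8, S100a9 and Retnlg there was 434, 38.1, 21.4 and 6746 CPM in the isotype, anti-PD-1, anti-MIF and combination arms of the long cohort, and 438, 12.0, 1106 and 19.3 CPM in the same arms of the short cohort, led by S100a8. Results of this gate are therefore also given without the cells that hold S100a8 or S100a9.

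With the arms pooled, each gate had its own mixture of GBPs. Of the 24587 GBP UMIs in the monocyte/macrophage gate, Gbp2, which coats pathogen vacuoles and cytosolic bacteria, made up 43.8%, followed by Gbp5, which promotes inflammasome assembly, at 12.8%, Gbp3 at 11.1% and Gbp7 at 9.71%. In the mature dendritic cell gate (757 UMIs) Gbp5 led with 40.3% and Gbp2 followed with 29.9%, while Gbp6 had 3 UMIs and Gbp7 had 4. The order in the T gate (1859 UMIs) was a different one, with Gbp6 at 27.0%, Gbp7 at 18.1%, Gbp4 at 11.8% and Gbp8 at 11.5%, and with Gbp2 at only 8.45%. In the pDC gate (119 UMIs) Gbp8 made up 33.6%, and Gbp4 22.7%, Gbp6 followed with 25 UMIs, and a single UMI of Gbp2 was counted. Among single arms of at least 10 cells, Gbp2 led in 8 of 8 in the monocyte/macrophage gate. Gbp5 led in 3 of 4 arms of the mature dendritic cell gate, where Gbp2 was first with long anti-PD-1, and Gbp6 led in 6 of 8 arms of the T gate, where Gbp4 was first with short isotype and Gbp7 with short anti-MIF. In the pDC gate Gbp8 led in 2 arms and Gbp4 in the other 2, on 5 to 11 UMIs each, so the order of these members was not settled there.

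**Figure D1:**
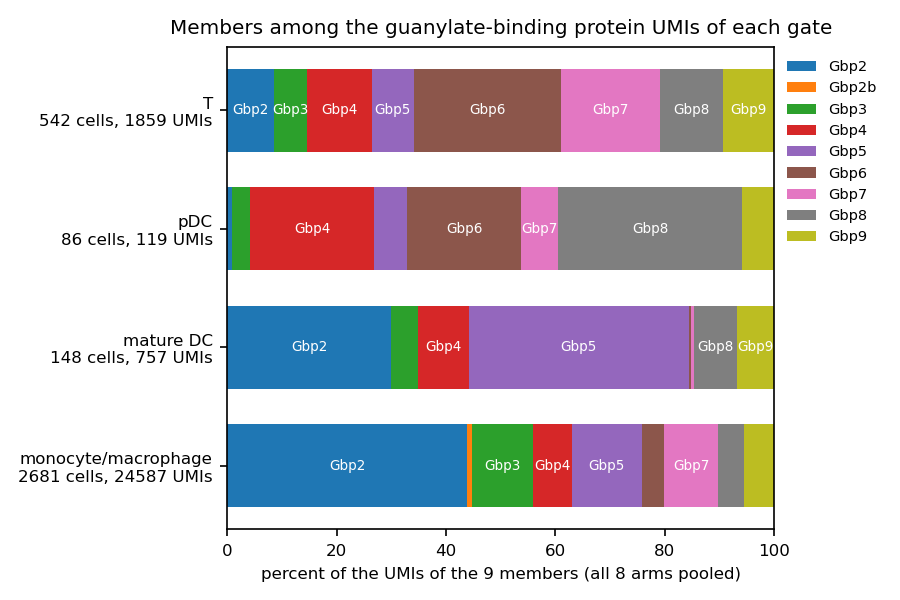
Share of each member among the UMIs of the 9 GBPs (x axis, percent) in each gate, with the 4 arms of both cohorts pooled. Gbp2 takes 43.8% in the monocyte/macrophage gate, Gbp5 40.3% in the mature dendritic cell gate, Gbp6 27.0% in the T gate and Gbp8 33.6% in the pDC gate.

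In the 4 arms of both cohorts, Gbp2b was counted in the monocyte/macrophage gate alone among the 4 gates. Its 226 UMIs there gave 9.87 CPM (95% interval 8.62 to 11.2). In the other gates no UMI was counted, which allows up to 1.06 CPM in the T gate, 2.32 CPM in the mature dendritic cell gate and 5.03 CPM in the pDC gate (3 counts each), so the 86 pDC gate cells are too few to show a much lower level there. Cells of several gates were left out, and when they were assigned in a fixed order instead, 1 UMI of Gbp2b was counted in the T gate. The tenth family gene, Gbp10, had the opposite distribution, with 100 UMIs in the T gate (35.2 CPM), 4 in the pDC gate, 1 in the mature dendritic cell gate and 10 in the much larger monocyte/macrophage gate. Its transcripts share most of their sequence with Gbp6, so the split between these genes is uncertain. Gbp2 stood at 471 CPM in the monocyte/macrophage gate, 175 CPM in the mature dendritic cell gate, 55.2 CPM in the T gate and 1.68 CPM in the pDC gate. Free RNA from myeloid cells could not be read from Lyz2, a lysozyme of these cells, because the rule that left out cells of several gates removed cells with Lyz2 from the other gates wherever Ly6c2 or C1qb was also counted. With such cells assigned in a fixed order, Lyz2 went from 16.5 to 206 CPM in the T gate and from 1.68 to 436 CPM in the pDC gate (95 cells), and Gbp2 was at 82.7 and 4.46 CPM there.

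The summed level of the 9 members was highest in the monocyte/macrophage gate, with a median of 1018 CPM over 8 arms (SD 425). The mature dendritic cell gate had a median of 716 CPM (SD 383, 4 arms with at least 10 cells), the T gate 666 CPM (SD 117, 8 arms) and the pDC gate 183 CPM (SD 60.6, 4 arms). The pDC arms lay between 150 and 278 CPM, below the lowest arm of each other gate. The other 3 gates overlapped, from 357 to 1179 CPM in mature dendritic cells, from 422 to 728 CPM in T cells and from 453 to 1816 CPM in the monocyte/macrophage gate, so the order of their medians was within the spread between arms. Gates and members were fixed by the choice of genes and cells, and no test was made between gates.

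**Figure D2:**
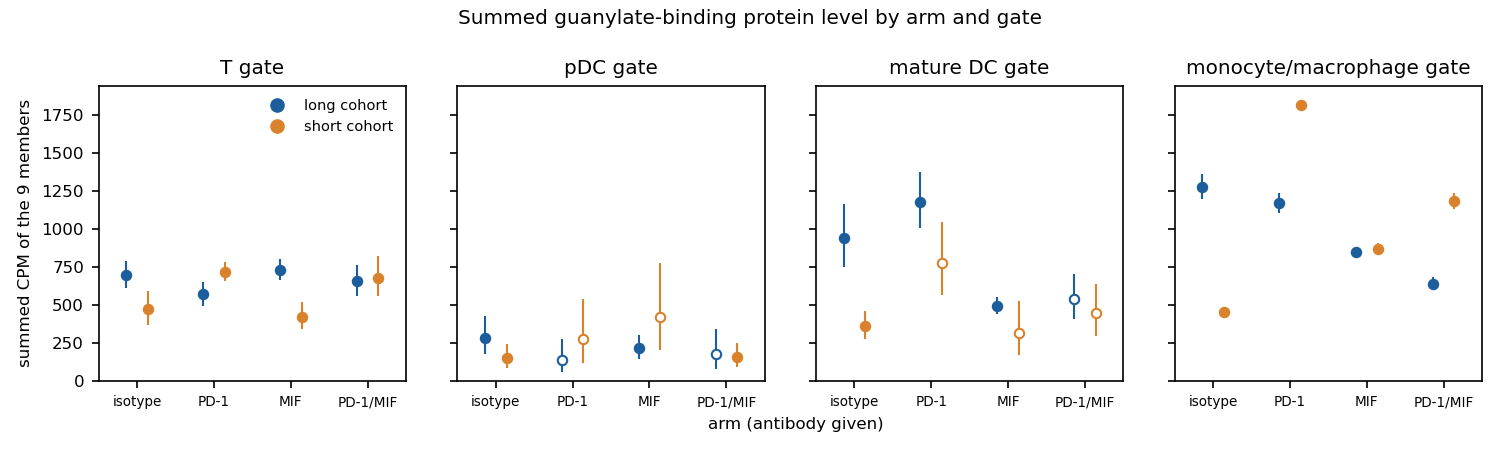
Summed CPM of the 9 GBPs (y axis) in each arm (x axis) of the long (blue) and short (orange) cohort, 1 panel per gate, with exact Poisson 95% intervals as bars. Hollow points are arms with fewer than 10 cells of the gate. In the monocyte/macrophage gate the short cohort runs from 453 CPM in the isotype arm to 1816 CPM in the anti-PD-1 arm, while the long cohort falls between 639 and 1277 CPM.

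In the monocyte/macrophage gate the GBP sum differed between arms and between cohorts. In the short cohort it was 453 CPM in the isotype arm (457 cells), 1816 CPM with anti-PD-1 (824 cells), 868 CPM with anti-MIF (328 cells) and 1181 CPM with anti-PD-1/anti-MIF (252 cells). In the long cohort the same arms stood at 1277 CPM (81 cells), 1168 CPM (123 cells), 846 CPM (486 cells) and 639 CPM (130 cells). The short isotype arm was thus the lowest and the short anti-PD-1 arm the highest of the 8, whereas the long isotype arm was the highest of its own cohort. In the order of the 8 arms, the Poisson intervals of the long isotype, short combination and long anti-PD-1 arms overlapped, as did those of the anti-MIF arms of the 2 cohorts, and the other neighbors had separate intervals. With 1 sample per arm and cohort, the spread between tumors of an arm is not known.

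As ratios within a cohort, anti-PD-1 over isotype was 4.01 in the short cohort (95% interval 3.80 to 4.23, exact conditional binomial, counting error only) and 0.914 in the long cohort (0.841 to 0.994). The latter was 0.992 (0.914 to 1.08) with hashtags assigned by MULTIseqDemux and 0.976 (0.896 to 1.06) with 2 UMIs required of each gate gene, so its distance from 1 was not larger than the counting error there. Where anti-MIF was also given, the ratio for anti-PD-1 was 1.36 in the short (1.28 to 1.45) and 0.755 in the long cohort (0.703 to 0.810). Both comparisons for anti-PD-1 hence lay above 1 in the short and below 1 in the long cohort. Anti-MIF over isotype was 1.92 in the short cohort (1.80 to 2.04) and 0.662 in the long cohort (0.618 to 0.710). On top of anti-PD-1, anti-MIF gave 0.651 in the short (0.620 to 0.682) and 0.547 in the long cohort (0.502 to 0.596). The combination arm was below the anti-PD-1 arm in both cohorts, and the isotype arms of the 2 cohorts themselves differed, 2.82 times higher in the long (2.60 to 3.05).

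Of the chromosome 3 genes, Gbp2 was the most abundant, at 566, 451, 337 and 279 CPM in the isotype, anti-PD-1, anti-MIF and combination arms of the long cohort, and at 173, 869, 356 and 521 CPM in those of the short cohort. Gbp5 followed the same order in both cohorts, with 204, 176, 74.1 and 57.7 CPM in the long and 54.8, 259, 107 and 175 CPM in the short cohort. For each of them the long cohort fell from the isotype arm to the combination arm, and the short cohort was lowest with isotype and highest with anti-PD-1. Gbp2b, the scarcest member, had 26.2, 14.2, 8.59 and 4.22 CPM in the long cohort (20, 16, 51 and 6 UMIs) and 1.96, 18.6, 2.68 and 7.01 CPM in the short cohort (7, 107, 7 and 12 UMIs). Its ratio of anti-PD-1 to isotype in the short cohort, 9.50 (4.45 to 24.2), was the highest of the 9, and the interval shows how few UMIs it rests on. Gbp3 varied less, between 70.3 and 140 CPM in the long and between 73.8 and 177 CPM in the short cohort. Gbp7, which has been tied to oxidase assembly on phagosomes, varied between 58.4 and 120 CPM in the long and between 58.2 and 151 CPM in the short cohort.

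Among the chromosome 5 genes, Gbp4 stood at 72.1, 105, 71.1 and 52.1 CPM in the long and at 26.0, 121, 57.7 and 71.9 CPM in the short cohort, in the same order of arms. Gbp6 had 49.8, 44.3, 51.7 and 17.6 CPM in the long cohort and 17.6, 64.8, 32.1 and 50.2 CPM in the short cohort. The low values of Gbp6 were thus in the long combination arm and the short isotype arm. Gbp8 had 40.6 to 50.6 CPM in the long cohort and 24.3 to 77.0 CPM in the short cohort, and Gbp9 ranged from 54.2 to 86.9 CPM and from 23.2 to 78.7 CPM. All 9 members had their lowest short value in the isotype arm and their highest in the anti-PD-1 arm, with ratios from 2.39 (Gbp3) to 9.50 (Gbp2b) and a ratio of 5.02 for Gbp2 and 4.73 for Gbp5. In the long cohort the ratio of anti-PD-1 to isotype was above 1 for Gbp4 (1.45), Gbp7 (1.29), Gbp8 (1.24) and Gbp9 (1.02) and below 1 for the other 5, and its interval lay apart from 1 only for Gbp4 (1.05 to 2.04) and, on the lower side, Gbp2 (0.796, 0.699 to 0.907).

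**Figure D3:**
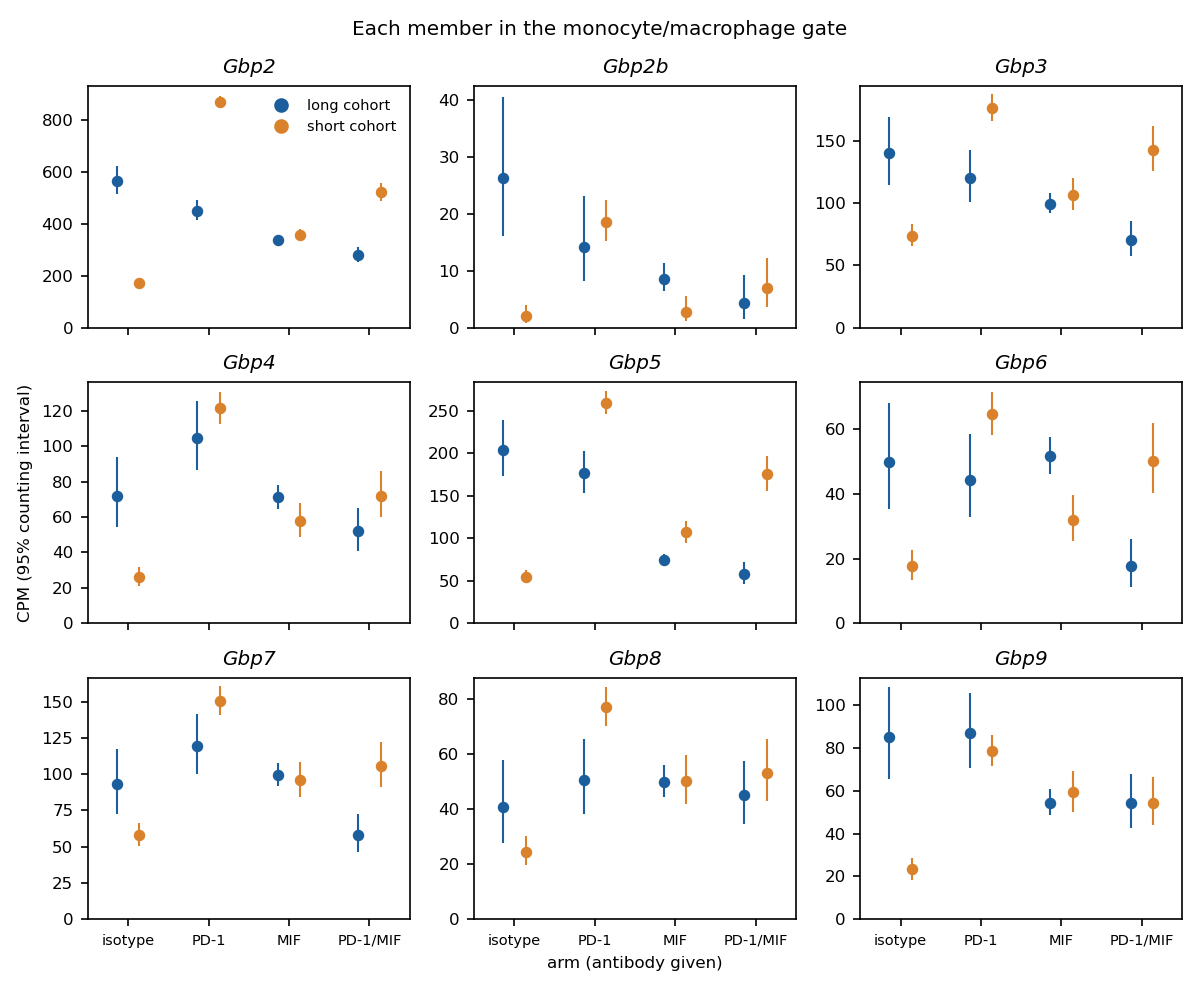
CPM of each member in the monocyte/macrophage gate (y axis, scale set per gene) by arm (x axis) in the long (blue) and short (orange) cohort, with exact Poisson 95% intervals. All 9 members are lowest in the isotype arm and highest in the anti-PD-1 arm of the short cohort, and Gbp2 and Gbp5 fall across the arms of the long cohort from 566 to 279 CPM and from 204 to 57.7 CPM.

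Cells of the gate were divided by their Ly6c2 and C1qb UMIs, markers of inflammatory monocytes and of tumor macrophages. Cells with Ly6c2 and without C1qb made up 71.6%, 55.3%, 26.7% and 46.9% of the gate in the long arms and 64.3%, 74.2%, 69.5% and 76.6% in the short arms, so the makeup of the gate differed between arms. Their GBP sums were 1489, 1128, 1182 and 670 CPM in the long cohort and 489, 1783, 867 and 1133 CPM in the short cohort. Within these cells alone the ratio of anti-PD-1 to isotype was 3.65 in the short and 0.758 in the long cohort, and that of anti-MIF to isotype was 1.77 and 0.794, on the same sides of 1 as in the whole gate. Cells with C1qb and without Ly6c2 were lower, with 552, 651 and 407 CPM in the anti-PD-1, anti-MIF and combination arms of the long cohort (303 CPM in 7 isotype cells) and with 281, 620, 409 and 998 CPM in the short cohort, the last from 12 cells. Cells with both markers lay at 822, 1540, 882 and 759 CPM in the long and 534, 2094, 1032 and 1364 CPM in the short cohort, and there the long ratios of anti-PD-1 to isotype (1.87, 1.56 to 2.26) and of anti-MIF to isotype (1.07, 0.908 to 1.28) were on the other side of 1 than in the whole gate. In the cells with C1qb only, the ratio of the combination to anti-PD-1 in the short cohort was also on the other side (1.61, 1.19 to 2.16), as were both long ratios over the 7 isotype cells. Without cells that held S100a8 or S100a9, the ratio of the combination to anti-MIF in the long cohort was 0.667 and that of the combination to anti-PD-1 was 0.492, and in the short cohort anti-MIF over isotype was 2.04.

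**Figure D4:**
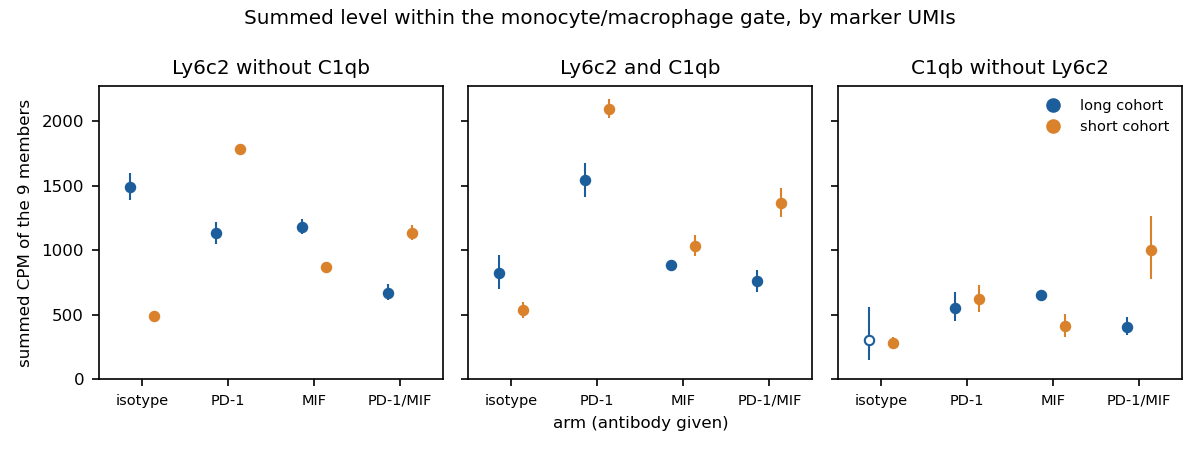
Summed CPM of the 9 GBPs (y axis) in cells of the monocyte/macrophage gate with Ly6c2 only, with both Ly6c2 and C1qb, and with C1qb only, by arm (x axis) in the long (blue) and short (orange) cohort, with exact Poisson 95% intervals. The hollow point is an arm of 7 cells. The short isotype arm is below the short anti-PD-1 arm in all 3 panels, at 489 against 1783, 534 against 2094 and 281 against 620 CPM.

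In the short cohort the share of cells with a GBP UMI also differed between the single samples of the arms. The intervals below treat the cells of a sample as independent. They do not cover the spread between tumors of an arm, which is not known. Free RNA was not subtracted, so these shares do not show how many cells transcribed the genes. After each cell was thinned to 2000 UMIs, 41.8% of the monocyte/macrophage cells of the isotype arm had at least 1 GBP UMI (exact binomial 95% interval 37.1 to 46.6), against 75.8% with anti-PD-1 (72.7 to 78.7), 54.8% with anti-MIF (49.1 to 60.4) and 63.7% with the combination (57.4 to 69.7). Unthinned, the shares were 71.8%, 89.0%, 79.9% and 83.1%. Cells under 2000 UMIs, 31, 13, 14 and 4 in these arms, were left out. In the long cohort the thinned shares were 60.8%, 72.0%, 61.5% and 42.7% and the unthinned ones 82.3%, 86.4%, 90.6% and 80.6%. The 10% of cells with the most GBP UMIs held 53.1% of them in the short isotype arm and 35.1% in the short anti-PD-1 arm. That share also depends on the mean count per cell, which differed between these arms. Gbp2 and Gbp5 tended to be counted in the same cells, since in the thinned short anti-PD-1 arm Gbp5 was found in 41.9% of cells with Gbp2 and in 16.4% of cells without it. For comparison, 1 UMI of Gbp2 was counted in all 86 pDC gate cells, a value partly set by leaving out cells that also held Lyz2 with Ly6c2 or C1qb (3 UMIs in 95 cells when these were assigned in a fixed order). Their median depth per arm was 4068.5 to 8649 UMIs, where the monocyte/macrophage gate had 6383 to 12274 UMIs.

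Treatment effects were tested with edgeR's quasi-likelihood test over the 8 arm sums of a gate, with terms for cohort, anti-PD-1 and anti-MIF. No arm was replicated, so the residual spread came from the 8 sums themselves and the p-values measure the spread between these 8 samples. All 9 members passed the filter on low counts in the monocyte/macrophage gate. None of them passed an adjusted p of 0.05 for anti-PD-1, and neither did any of the 9557 genes tested (0%), with 472 genes at an unadjusted p under 0.05 and 0 called by DESeq2. For anti-MIF, likewise, 0 of 9557 genes (0%) were called by edgeR, 647 were under an unadjusted p of 0.05 and DESeq2 called 9. Fitted log2 fold changes for anti-PD-1 were positive for all 9 members, from 0.29 (SE 0.25, Gbp3) to 0.72 (SE 0.60, Gbp2b), with a median of 0.52 where that of all genes was -0.0056, and the smallest adjusted p (edgeR) was 0.94. That median fell to -0.021 when the short isotype arm was left out, with 4 members positive and 5 negative, and stayed between 0.23 and 0.85 when any other arm was left out. For anti-MIF 8 of 9 were negative, down to -0.77 (SE 0.42) for Gbp5 and -1.25 (SE 0.59) for Gbp2b, and the median was -0.24 against 0.014 for all genes, with adjusted p (edgeR) of 0.74 or more. Leaving out the short isotype arm moved the anti-MIF median to -0.63, with all 9 negative, and leaving out the short anti-PD-1 arm moved it to -0.0079.

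Whether the effects differed between cohorts was tested with an interaction term. The term for anti-MIF was planned, and that for anti-PD-1 was added after the data were seen. For anti-MIF by cohort edgeR called 0 of 9557 genes (0%), with 994 under an unadjusted p of 0.05, and DESeq2 called 51, and for the members the log2 difference of long minus short was negative for 8 of 9, with a median of -0.30 and a value of -1.39 (SE 0.68) for Gbp5. That median was positive without the short isotype arm (0.30) or the long combination arm (0.22) and -1.67 without the short anti-PD-1 arm, and 142 genes were called without the long combination arm and 79 without the long anti-MIF arm, with no GBP among them. For anti-PD-1 by cohort edgeR called 2 genes (0.0209%), none of them a GBP, and DESeq2 called 0. The called genes, named after their values were seen, were Ngp and Retnlg, both of them neutrophil genes. All 9 members had negative differences, that is, a lower log2 fold change of anti-PD-1 in the long cohort, from -0.58 (SE 0.61, Gbp9) through -1.07 (SE 0.39, Gbp3), -1.55 (SE 0.56, Gbp2) and -1.95 (SE 0.54, Gbp6) to -3.25 (SE 0.70, Gbp2b). The median was -1.07 where that of all genes was 0.014. Of the 9, 4 were lower at an unadjusted p under 0.05 (116 of all genes, 1.21%, were), but the adjusted p (edgeR) was 0.99962 for each, so the difference failed the correction over all genes. When genes of low counts were not filtered out, 82 genes were called, with Gbp2, Gbp2b, Gbp5 and Gbp6 among them. Without the short isotype arm the median was -0.62 and 8 of 9 were negative, and without the short anti-MIF arm it was -2.08.

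**Figure D5:**
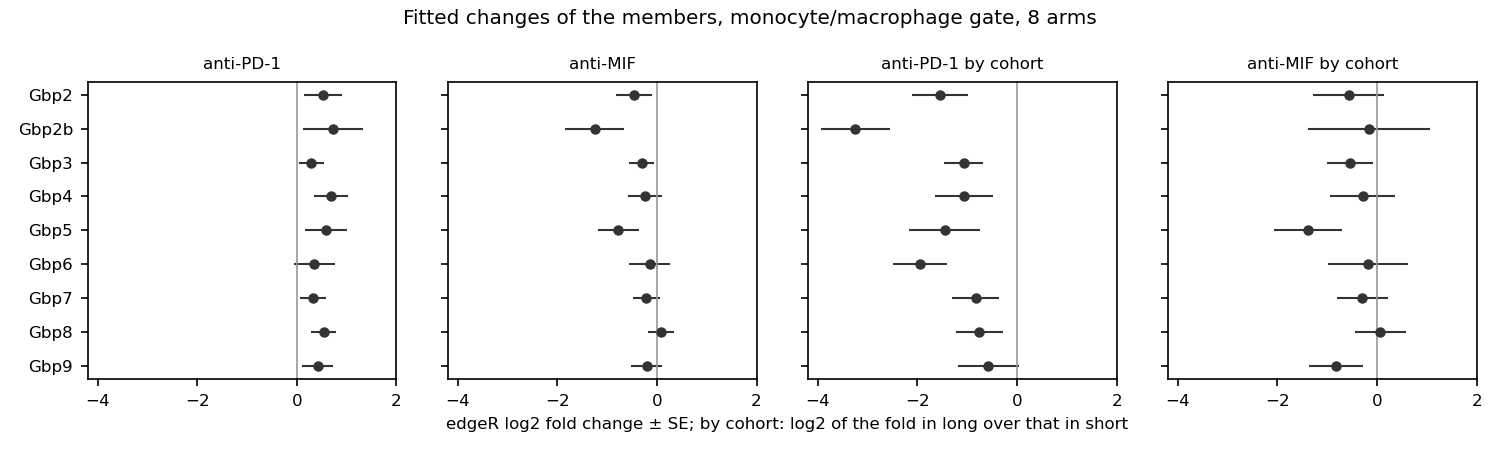
Log2 fold change of each GBP (points, with SE as bars) from the edgeR fits over the 8 arm sums of the monocyte/macrophage gate, for anti-PD-1, anti-MIF and the difference of each effect between the long and the short cohort (long minus short). The points for anti-PD-1 lie between 0.29 and 0.72, and those for its difference between cohorts between -3.25 and -0.58, and none has an adjusted p under 0.05.

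In the T gate the GBP sum varied less. It was 693, 568, 728 and 654 CPM in the isotype, anti-PD-1, anti-MIF and combination arms of the long cohort and 469, 718, 422 and 678 CPM in the short cohort, from 33 to 170 cells an arm. The 2 short arms without anti-PD-1 were the lowest of the 8. Anti-PD-1 over isotype was 1.53 in the short (1.19 to 2.00) and 0.818 in the long cohort (0.678 to 0.987), and the combination over anti-MIF was 1.61 and 0.898. For anti-PD-1 the sides of 1 were thus those of the monocyte/macrophage gate. However, the long combination and anti-MIF intervals overlapped (556 to 764 and 662 to 800 CPM). Anti-MIF was above isotype in the long and below it in the short cohort, the reverse of that gate, with overlapping intervals. Gbp6, the leading member in 6 of the 8 arms, had 224, 187, 229 and 207 CPM in the long cohort and 61.2, 154, 70.3 and 157 CPM in the short cohort, and its 4 long values lay above its 4 short ones. Gbp7 was steady, between 92.0 and 144 CPM over the 8 arms. Cells with Cd8a and without Cd4, most of the gate in the long cohort, had GBP sums of 647, 580, 568 and 679 CPM in the long and 289 (14 cells), 671, 410 and 485 CPM in the short cohort.

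Of the 9 members, 8 passed the filter in the T gate, all but Gbp2b. For anti-MIF edgeR called 2 of 5322 genes (0.0376%), neither of them a GBP, and DESeq2 also called 2. These genes, named after their values were seen, were Penk, the enkephalin precursor, and the T cell receptor segment Trav8d-2. For anti-PD-1 edgeR called 0 of 5322 genes (0%), with 186 under an unadjusted p of 0.05, and DESeq2 called 1. GBP log2 fold changes ran from -0.49 to 0.47 for anti-PD-1 and from -0.64 to 0.31 for anti-MIF, on both sides of 0 in each case. Anti-MIF by cohort gave 0 calls (0%) with 350 genes under an unadjusted p of 0.05 and 0 by DESeq2, and anti-PD-1 by cohort gave 0 calls (0%) with 198 genes under it and 0 by DESeq2. For anti-MIF by cohort all 8 members were positive, with a median of 0.20, which became negative without the short anti-PD-1 arm (-0.38), without the long anti-PD-1 arm (-0.071) or with cells of several gates assigned in a fixed order (-0.014). For anti-PD-1 by cohort all 8 members were negative, with a median of -1.02 and -1.43 (SE 0.38) for Gbp6, and 3 of the 8 were lower at an unadjusted p under 0.05 (118 of all genes, 2.22%, were) but none passed the adjustment (edgeR).

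Mature dendritic cells and pDCs were few, and only arms of at least 10 cells are compared. Mature dendritic cells had a GBP sum of 939 CPM in the long isotype arm (11 cells), 1179 CPM with anti-PD-1 (14 cells) and 493 CPM with anti-MIF (68 cells), and of 357 CPM in the short isotype arm (23 cells). As in the monocyte/macrophage gate, the isotype arm of the long cohort was above that of the short cohort and the long anti-MIF arm was below the long isotype arm, whereas the long anti-PD-1 arm was above the long isotype arm here and below it there. The intervals of the long anti-PD-1 and isotype arms overlapped (1003 to 1377 and 749 to 1162 CPM). Gbp5 had 369, 430 and 209 CPM in the 3 long arms and 157 CPM in the short isotype arm, and Gbp2 had 257, 482, 123 and 109 CPM in the same arms. In pDCs the sum was 278 CPM in the long isotype arm, 213 CPM with anti-MIF in the long cohort, 150 CPM in the short isotype arm and 153 CPM in the short combination arm, from 10, 19, 16 and 16 cells, with overlapping intervals.

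Of 1367 UMIs of the ligand, interferon gamma (Ifng), 908 (66.4%) were counted in the T gate, 303 (22.2%) in the 1274 cells of no gate and 148 (10.8%) in the 59 cells of several gates, of which 116 were from 17 cells of the short anti-PD-1 arm. The other gates held 8 UMIs in the monocyte/macrophage gate and 0 in the pDC and mature dendritic cell gates, which allows up to 5.03 and 2.32 CPM. In T cells Ifng stood at 314, 462, 255 and 803 CPM in the isotype, anti-PD-1, anti-MIF and combination arms of the long cohort and at 116, 283, 159 and 75.4 CPM in the short cohort. T cells made up 26.5%, 18.8%, 11.4% and 14.5% of the cells of these long arms and 4.43%, 12.4%, 8.63% and 8.48% of those of the short arms, shares that the sort by CD45 can set. In the short cohort the anti-PD-1 arm was highest in both Ifng of T cells and GBPs of the monocyte/macrophage gate, and the combination arm had the second highest GBP sum with Ifng of only 12 UMIs, whose interval (38.9 to 132 CPM) overlapped those of isotype and anti-MIF. In the long cohort the combination arm had the highest Ifng per T cell UMI and the lowest GBP sum. In cells of no gate, which can include NK cells, another source of interferon gamma, Ifng was at 29.6, 73.7, 33.5 and 25.8 CPM in the long arms and at 17.0, 78.0, 60.1 and 32.3 CPM in the short arms. It was highest with anti-PD-1 in both cohorts. However, its interval overlapped that of isotype in the long cohort (53.3 to 99.2 and 11.9 to 60.9 CPM). In the short cohort it overlapped that of anti-MIF.

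Receptors varied less than GBPs in the monocyte/macrophage gate, where Ifngr1 lay between 165 and 277 CPM and Ifngr2 between 86.7 and 158 CPM over the 8 arms. Irf1, a transcription factor that interferon gamma induces, had 274, 278, 172 and 131 CPM in the long and 117, 434, 157 and 227 CPM in the short cohort. It was lowest with isotype in the short cohort and with the combination in the long cohort, as the GBP sum was. Of the type I interferon targets, Isg15 was at 1600, 2344, 861 and 1061 CPM in the long and 794, 1922, 1198 and 1778 CPM in the short cohort, and Ifit3 was highest in the long anti-PD-1 arm, at 659 CPM, against 137 to 322 CPM in the other 7. These 2 genes peaked with anti-PD-1 in the long cohort. Irf7 likewise had 621, 1073, 592 and 480 CPM in the long cohort and 238, 398, 353 and 421 CPM in the short cohort. The long GBP sum was 1277 CPM with isotype and 1168 CPM with anti-PD-1, with overlapping Poisson intervals and a ratio of 0.992 with MULTIseqDemux. Gbp4, Gbp7, Gbp8 and Gbp9 were higher with long anti-PD-1 than with isotype, and the other members were lower. Whether these genes and the GBPs differed was not tested.

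The wider lists were described in the same fits, and no gene of either list passed the adjustment in any of them (edgeR). Of the 31 genes of the interferon gamma list, 28 were tested in the monocyte/macrophage gate, and for anti-PD-1 26 were positive and 2 negative with a median log2 fold change of 0.40. Of the 26 genes of the type I interferon list, 24 were tested and for anti-PD-1 23 were positive and 1 negative with a median of 0.41, close to the former. For anti-MIF the interferon gamma list had 5 positive and 23 negative genes (median -0.28) and the type I list 3 and 21 (median -0.26). For anti-PD-1 by cohort the median of the interferon gamma list was -0.62 (25 of 28 negative, 7 of them under an unadjusted p of 0.05, where 1.21% of all genes were lower), between the -1.07 of the GBPs and that of the type I list, -0.083 (14 of 24 negative, 0 under it). For anti-MIF by cohort the order was the other way round, with a median of -0.42 for the interferon gamma list (24 of 28 negative, 4 of them under an unadjusted p of 0.05, where 510 of all genes, 5.34%, were lower) and -0.999 for the type I list (23 of 24 negative, 18 under it, smallest adjusted p by edgeR 0.0787). The median of all genes was 0.014 and 0.017 in these fits, and the difference between the lists was not tested. In the T gate the medians of the interferon gamma and type I lists lay close together for anti-PD-1 by cohort, at -0.67 (18 of 21 negative) and -0.59 (13 of 16 negative), and for anti-PD-1, at 0.037 and -0.015. For anti-MIF they were -0.064 and 0.16 there, and for anti-MIF by cohort 0.49 and 0.31.

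Genes whose level was most like that of the GBP sum were ranked by Pearson's r of log2(CPM + 10) over 24 sums of a gate and arm with at least 10 cells, among 7981 genes. Rap1b (0.87), Slfn1 (0.86), Xaf1 (0.84), Arpc2 (0.84), Zbp1 (0.84), Lrrfip2 (0.82), Cap1 (0.81), Actr3 (0.81) and Anxa2 (0.80) were 9 of the first 10. These sums share 2 libraries and differ mostly by cell type, so r is a description and no p is given. Within the 8 monocyte/macrophage sums Zbp1 (0.92) kept a high r and Rap1b (-0.14), Actr3 (0.058) and Lrrfip2 (0.17) did not. Between members, r over the same 8 sums was 0.95 for Gbp2 with Gbp3, 0.94 for Gbp2 with Gbp5 and 0.97 for Gbp3 with Gbp5, and it was lowest for Gbp2b with Gbp8, at 0.44.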

How the data were processed

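The authors aligned reads to mm10 and deposited, per library, filtered matrices of UMI counts per gene and barcode, and hashtag counts, without normalization. The submitters' processing notes name Cell Ranger 7.1.0, Seurat 5.1.0, R 4.3.2 and DESeq2. The annotation release is not given in the sources used here. Barcodes were assigned to arms with HTODemux (Seurat 5.3.0, R 4.3.3) at a positive quantile of 0.99, which left out 425 and 626 doublets and 24 and 176 negatives (long, short). Cells with 200 to 5000 genes and at most 5% mitochondrial UMIs were kept. Cells of a 5th hashtag (322 and 993), named anti-PD1-MIF-DDT in the files but in none of the labels, entered no comparison. Doublets within an arm were not removed and free RNA was not subtracted.

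UMIs were summed per gate and arm (at least 10 cells) and tested with edgeR 4.0.16 (limma 3.58.1; filterByExpr, TMM, quasi-likelihood F test, Benjamini-Hochberg over all genes), with DESeq2 1.42.0 as the alternative. The fits were also run on simulated counts with known changes. The outcome is not reported here, so the size of change that the fits could detect is not given. Ratios carry exact conditional binomial intervals. Python 3.11.15, NumPy 2.4.6, SciPy 1.17.1 and matplotlib 3.10.9 were used for levels and plots. The text names the 9 members, Gbp10, Ifng, its receptors, Irf1, Isg15, Ifit3, Irf7, any other list gene past a threshold and the 10 genes most like the GBP sum, of which 1 is not reported here. Members, gates and lists were chosen with earlier results of these data known. Intervals and floors (3 counts) cover counting error only.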

Additional observations from a re-analysis of the deposited data

Results flagged for a closer look

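In the monocyte/macrophage gate, both anti-PD-1 ratios lay on one side of 1 in the short cohort and on the other side in the long cohort for the GBP sum and for 5 members. The mean log2 ratio, long minus short, was -1.49 for the sum (-0.27 in the long and 1.22 in the short cohort), -1.74 for Gbp2, -3.27 for Gbp2b, -1.20 for Gbp3, -1.76 for Gbp5 and -2.12 for Gbp6. The single genes are those of the interaction test in the report, where none passed the adjustment over all genes, and the difference of the sum itself was not tested. In the T gate the same difference was -0.87 for the GBP sum and -1.45 for Gbp6, and the mean log2 ratio for anti-MIF was 0.14 in the long and -0.12 in the short cohort (0.26 between them), with overlapping Poisson intervals in each of the 4 pairs of arms. These differences of the sums in T cells were not tested either. The long anti-PD-1 ratio of the sum was 0.914 over isotype, and 0.992 with MULTIseqDemux. With 1 library per cohort, duration and library cannot be told apart.

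Cells of the 5th hashtag, which the files name anti-PD1-MIF-DDT and no label describes, had a GBP sum in the monocyte/macrophage gate of 2649 CPM in the long cohort (229 cells, 95% interval 2581 to 2718) and 1279 CPM in the short cohort (648 cells). The isotype arms were at 1277 and 453 CPM, and the long value lay above all 8 labelled arms.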

How the results depend on the processing

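Counts of genes called by edgeR at an adjusted p of 0.05 depended on the settings, and the cause was not tested. Without a filter on low counts they rose in the monocyte/macrophage gate from 0 to 44 for anti-MIF, 0 to 19 for anti-PD-1, 0 to 275 for anti-MIF by cohort and 2 to 82 for anti-PD-1 by cohort, and in the T gate from 2 to 37, 0 to 44, 0 to 52 and 0 to 21 in that order. Only under this setting did members pass, which were Gbp5 for anti-MIF by cohort (-1.31 on the log2 scale) and Gbp2 (-1.60), Gbp2b (-3.30), Gbp5 (-1.50) and Gbp6 (-2.01) for anti-PD-1 by cohort, all in the monocyte/macrophage gate. DESeq2 called 9 genes for anti-MIF, 51 for anti-MIF by cohort and 0 for anti-PD-1 by cohort in that gate, and 1 for anti-PD-1 in T cells. In the monocyte/macrophage gate MULTIseqDemux gave 1 gene for anti-MIF by cohort and 0 for anti-PD-1 by cohort, and the latter gave 1 when cells of over 5000 genes were kept. Cells with Ly6c2 and without C1qb gave 1 gene for anti-MIF, 1 for anti-PD-1 and 4 for anti-PD-1 by cohort. Cells without S100a8 or S100a9 gave 12 for anti-MIF by cohort and 0 for anti-PD-1 by cohort. Gates in a fixed order gave 0 for anti-MIF in T cells.

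With 1 arm left out at a time, counts ran from 0 to 2 (anti-MIF), 0 to 1 (anti-PD-1), 0 to 142 (anti-MIF by cohort) and 0 to 13 (anti-PD-1 by cohort) in the monocyte/macrophage gate, and from 0 to 4, 0 to 3, 0 to 6 and 0 to 8 in the T gate. The high counts were those without the long combination arm (142 genes, anti-MIF by cohort), without the long anti-MIF arm (79) and without the long isotype arm (13, anti-PD-1 by cohort), and no member was among the calls of any of these fits. In the monocyte/macrophage gate the log2 fold change for anti-PD-1 ran from -0.21 to 1.20 for Gbp2b, from -0.054 to 0.55 for Gbp3 and from -0.021 to 0.85 for the median of the members, each lowest without the short isotype arm. The difference by cohort ran from -1.70 to 0.23 for Gbp9 (anti-PD-1) and from -1.67 to 0.30 for the median of the members (anti-MIF), each highest without that same arm. In the T gate the median of the members for anti-MIF by cohort ran from -0.38 (without the short anti-PD-1 arm) to 0.70 (without the short combination arm), and it was -0.014 with gates in a fixed order.

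Ratios of the summed GBP level kept their side of 1 under other settings for cells and hashtags and without S100a8 or S100a9 cells, but not in every subset by Ly6c2 and C1qb, and long anti-PD-1 over isotype (0.914) came to 0.992 with MULTIseqDemux and 0.976 when gating at 2 UMIs. In cells with Ly6c2 and without C1qb they moved to 0.758 (long anti-PD-1 over isotype), 0.794 (long anti-MIF over isotype), 0.567 (long combination over anti-MIF), 3.65 (short anti-PD-1 over isotype) and 1.77 (short anti-MIF over isotype). In cells with both markers the long ratios were 1.87 (anti-PD-1 over isotype) and 1.07 (anti-MIF over isotype), both on the other side of 1, with 0.861 (combination over anti-MIF) and 0.493 (combination over anti-PD-1). In cells with C1qb and without Ly6c2 the long ratios over 7 isotype cells were 1.82 for anti-PD-1 and 2.15 for anti-MIF, and the short combination over anti-PD-1 was 1.61, all on the other side, while the others were 0.624 (long combination over anti-MIF), 0.736 (long combination over anti-PD-1), 2.20 (short anti-PD-1 over isotype), 2.44 (short combination over anti-MIF) and 1.45 (short anti-MIF over isotype). Without S100a8 or S100a9 cells they were 0.667 (long combination over anti-MIF), 0.492 (long combination over anti-PD-1) and 2.04 (short anti-MIF over isotype). MULTIseqDemux gave 0.823 for the long combination over anti-MIF and 3.79 for short anti-PD-1 over isotype, and gating at 2 UMIs gave 0.486 for the long combination over anti-PD-1. The medians of the summed level over arms moved by less than the spread between arms under each alternative, the mitochondrial limit of 10% included. Over all members, gates and fits, 386 of 412 log2 fold changes under other settings kept their direction and their side of the threshold, 5 passed it, as given above, and 21 changed sign, and of 544 with an arm left out 69 changed sign. Leaving out arms in the fits by cohort, the subsets of cells by Ly6c2, C1qb, S100a8 and S100a9, and the ratios under other settings were added after seeing the data. No paired analysis by replicate number was possible because the labels give none that the arms share, and the cohort, which is also the library, was a term of each fit. With 1 sample per arm and cohort, depth limits only the counting error, and the spread between tumors is not known.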

Other observations

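The 5th hashtag was also read in the T gate, where the GBP sum was 1153 CPM in 20 cells of the long cohort and 558 CPM in 37 cells of the short cohort. Gbp10 there stood at 107 and 43.9 CPM. The labelled arms lay between 422 and 728 CPM for the sum and between 6.80 and 55.2 CPM for Gbp10. In the mature dendritic cell gate, 7 cells of the 5th hashtag in the short cohort held 2 UMIs of Gbp2b (44.6 CPM). Its 4 cells of that gate in the long cohort held 0.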
